A study of Mus musculus with 12 samples.

Results

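The genes described here code for the enzymes that mammals use to oxidise, hydrolyse and conjugate foreign compounds: cytochromes P450 of families 1 to 3 (Cyp1, Cyp2, Cyp3), UDP-glucuronosyltransferases (Ugt1, Ugt2), glutathione S-transferases of the alpha, mu, pi and theta classes (Gsta, Gstm, Gstp, Gstt), cytosolic sulfotransferases (Sult) and carboxylesterases of families 1 and 2 (Ces1, Ces2). They were chosen by gene symbol among the probe sets that carry exactly 1 symbol and by the intensity minimum below, which some passed only through the segment where they are high. The symbols of 104 genes matched, and 59 of them had an intensity over 50 on at least 1 of the 12 arrays and are called the members below, out of 11920 genes tested in the small intestine. Of the 59, 44 were over 50 on all 12 arrays and 15 on some arrays only.

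The data are microarray measurements of scrapings of mucosa and submucosa from the small intestine of male C57BL/6J mice, which was cut into a proximal, a middle and a distal part. Old mice of 21 months and young mice of 4 months had received, for 2 weeks, a palm oil-based high-fat diet (45% of energy as fat) or low-fat diet (10%). Each array carried RNA pooled from 8 old or 6 young mice, with 1 array for each of the 12 combinations of segment, age and diet, and each pool gave all 3 of its segments, so that 4 pools of mice stand behind all values. All mice, those of the high-fat groups included, had first been on chow and then on the low-fat diet, and they were killed in the fed state.

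The groups were therefore, in each segment, old mice on the high-fat diet, young mice on the high-fat diet, old mice on the low-fat diet and young mice on the low-fat diet. Pooling leaves no measure of the spread between mice. For the segments the 4 pools served as repeats, for the diet the old and the young pair of pools, and for age the high-fat and the low-fat pair. The p-values come from limma and were adjusted over all 11920 genes; under 0.05 counts as called, and "rose" and "fell" are used of called differences only. With so few arrays, and with repeats that differ in diet or age, these p-values hold no spread between mice. For the segments, level differences between pools were taken out, and the p-values rest on how far the segment differences varied between pools. For diet and age, they rest on how far the diet difference varied between old and young mice. In every fit limma also drew each gene's spread toward that of all genes. Within segments this prior had 4.37 degrees of freedom, against 3 residual ones. The standard errors given below are therefore in part the spread of other genes. Within segments this spread was pooled over all segments, although these share the same mice.

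As background, the enzymes work in 3 steps. Cytochromes P450 insert oxygen with electrons from P450 oxidoreductase, and carboxylesterases cleave ester and amide bonds of drugs and of lipids. Glucuronosyl-, glutathione- and sulfotransferases then attach a polar group, and transporters of the ABC family move the conjugates out of the cell. Pregnane X receptor (Nr1i2), constitutive androstane receptor (Nr1i3), aryl hydrocarbon receptor (Ahr) and Nrf2 (Nfe2l2) are the best known regulators of these genes. In the small intestine the enzymes sit mainly in the absorptive cells of the villi, where they meet oral drugs and dietary compounds before the liver does.

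Not all families were measured above the minimum. None of the 3 Cyp1 genes, which are classic targets of the aryl hydrocarbon receptor, passed, and their highest intensities on any array lay between 15.7 and 38.4. Of the other families, 20 of 44 Cyp2, 4 of 6 Cyp3, 6 of 8 Ugt2, 2 of 2 Gsta, 7 of 7 Gstm, 2 of 2 Gstp, 3 of 4 Gstt, 6 of 16 Sult, 5 of 7 Ces1 and 4 of 5 Ces2 genes passed. Ugt1 had no probe set with a single symbol. The members just inside the minimum were Cyp2w1 and Cyp2c38, with highest intensities of 58.3 and 61.5, and the genes just outside were Cyp2r1 and Ces1b with 44.8 and 42.4. Intensities under 50 were not told apart from background here, and 15 of the members hold such values. Levels are compared between samples for a given gene, not between genes, because probes differ in brightness. Many members have near-identical relatives (the Cyp2c, Cyp3a, Ugt2b, Gstm and Ces1 clusters), and a probe set of one may also pick up the RNA of another.

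Libraries that stood apart concern every result below. A list of 28 pancreatic acinar genes, removed before testing, summed to 58551 to 124632 intensity units in the 4 proximal arrays, 4742 to 6605 in the middle ones and 3380 to 4595 in the distal ones, with the highest sum on the young high-fat proximal array. The ileal bile acid carrier Fabp6, with 8530 to 8733 units on the distal arrays and 24.1 to 67.4 on the proximal ones, had 2540 units on the middle array of young high-fat mice, against 191 in old high-fat, 460 in old low-fat and 717 in young low-fat mice. Slc10a2 had 980 units on that array and 114.5 to 221 on the other middle ones. The list of 16 ileal genes did not set that array apart. It summed there to 28240 units, against 22771 in old high-fat, 27478 in old low-fat and 28805 in young low-fat mice. Of the enterocyte markers, Vil1 was level, with 7200 to 7336 units on the distal arrays and 7284 to 7405 on the proximal ones. The 17 markers of that list were not all level: 5 rose and 7 fell between distal and proximal. They summed to 90395 to 111301 units on the distal arrays and 117656 to 119182 on the proximal ones. The highest distal sum was that of old high-fat mice, whose distal array also stood apart in other lists. Smooth muscle and stromal genes summed there to 2251 units, against 4020 to 6736 on the other distal arrays. Crypt genes summed to 4789, against 6234 to 6646, and immune genes to 7224, against 8856 to 9950. This array is part of every distal diet and age difference. Alb, the defining liver gene, was at most 28.4 on all 12. Of 10 listed liver genes on the array, 3 were over 50 and tested. Between distal and proximal 1 of these rose and 1 fell (27.3% and 27.5% of all genes). The part of these other cells in the results was not tested, and in such bulk tissue fewer cells of a type and less RNA per cell cannot be told apart. No 2 arrays were identical: their correlations over all genes ran from 0.924 to 0.9954.

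Most of the members fell along the intestine. Between the distal and the proximal segment 48 of 59 members fell, against 27.5% of all genes tested, and 4 rose, against 27.3%. The median difference of the members was -1.20 on the log2 scale, against 0.02 over all genes. Among the 44 members over 50 on every array, 39 fell and 2 rose, with a median of -1.24. For 46 members all 4 proximal arrays lay above all 4 distal arrays, against 23.8% of all genes, and for 3 members the distal arrays lay above, against 23.0%. The map of the 59 members over the 12 arrays shows this as a change from red to blue.

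**Figure D1:**
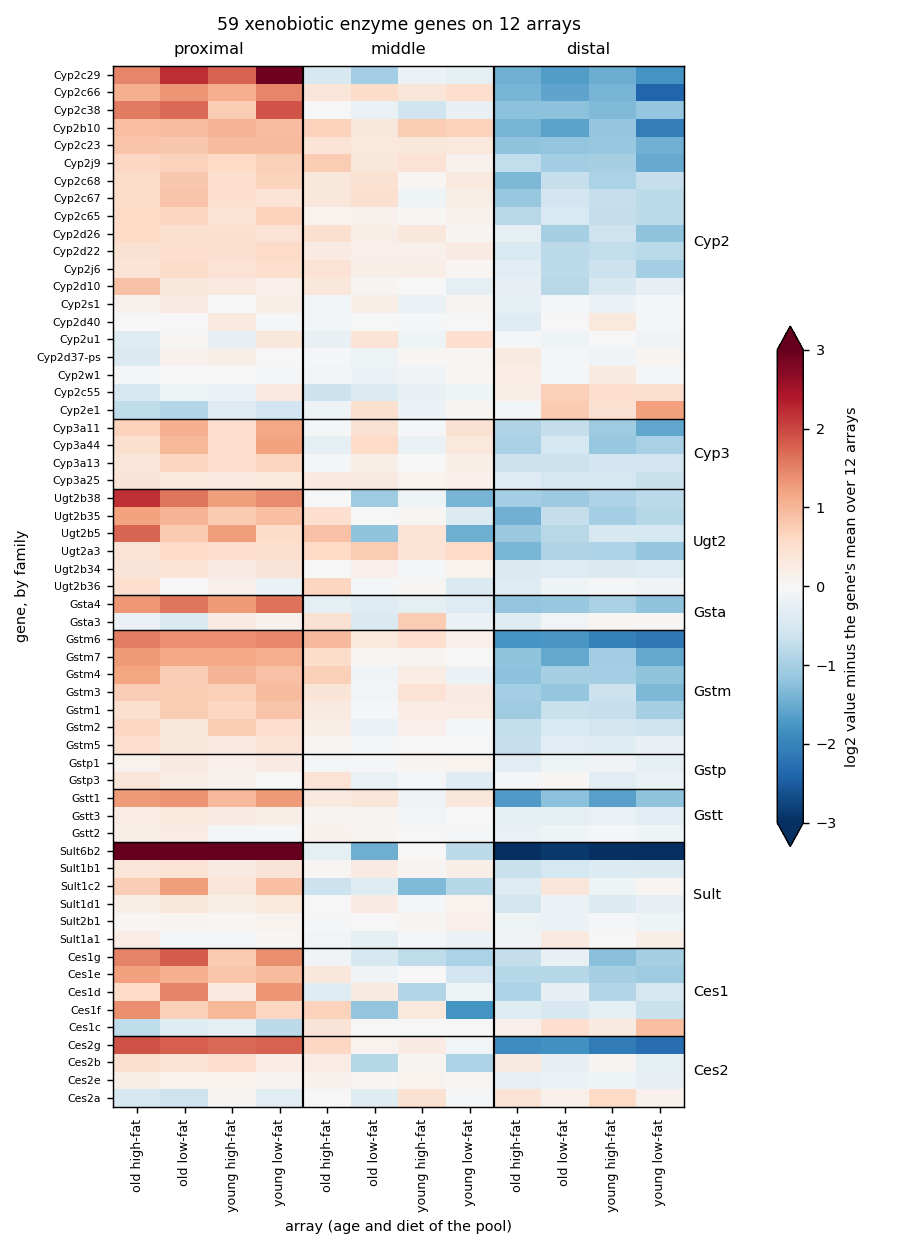
Log2 value of each of the 59 members (rows, by family) on each of the 12 arrays (columns, by segment, then age and diet), less that gene's mean over the 12 arrays; the colour scale is cut at 3 in both directions. Most rows are above their mean in the proximal columns and below it in the distal ones, where 48 members fell.

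In the 2 steps that make up this fall, 34 members fell and 3 rose between the middle and the proximal segment (10.9% and 14.0% of all genes), and 39 fell and 3 rose between the distal and the middle segment (20.0% and 14.6% of all genes). Without the old low-fat pool, 24 instead of 37 members were called between middle and proximal. Of the 48 members that fell over the whole length, 28 fell in both steps, 6 in the step to the middle only, 11 in the step to the distal segment only and 3 in neither. The step to the distal segment was the larger for 33 of the 48 and the step to the middle for 15. Of the enterocyte markers 5 rose and 7 fell of 17 tested between distal and proximal, with a median of -0.09. Smooth muscle and stromal genes (8 of 12) and crypt genes (10 of 11) rose, against 27.3% of all genes, and the part of this shift in cell types was not tested.

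**Figure D2:**
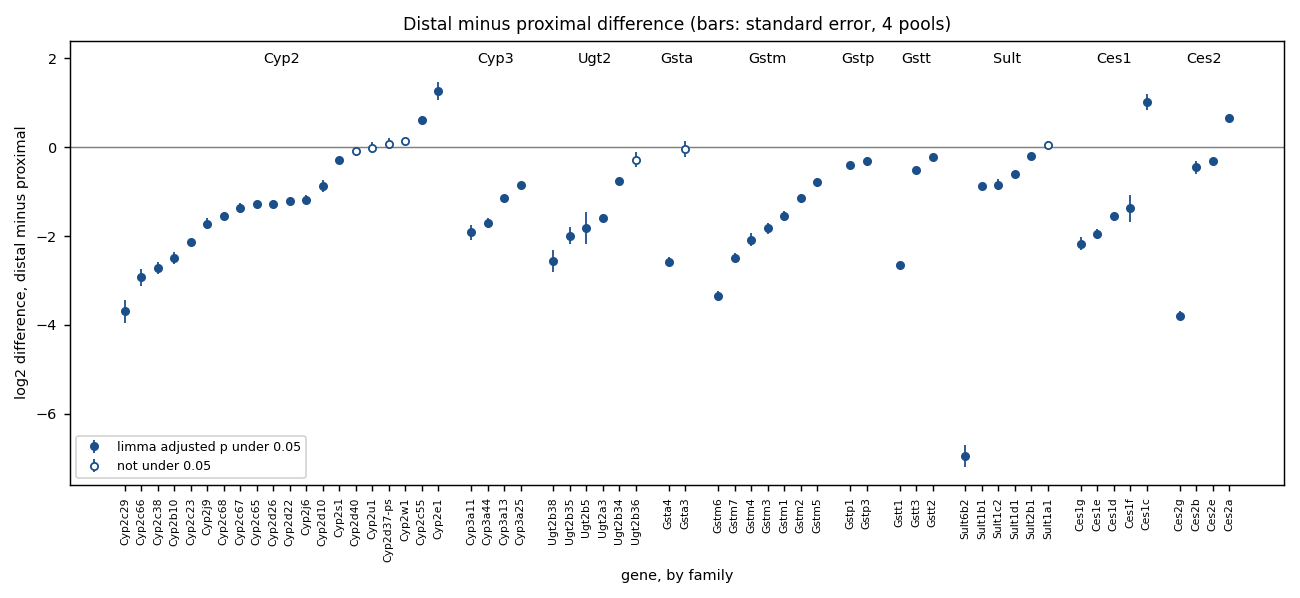
Distal minus proximal difference (log2, vertical axis) of each member, by family; bars are the standard error over 4 pools, filled points had a limma adjusted p under 0.05 and open points did not. Sult6b2 lies lowest, with distal values under 50, and Cyp2e1, Ces1c, Ces2a and Cyp2c55 are the filled points above 0.

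Of the phase 1 oxidases, 14 of 20 Cyp2 members fell and 2 rose, with a median of -1.24. Cyp2c29, known in mice as an arachidonic acid epoxygenase, had 169.6, 210.1, 288 and 465 units in the proximal arrays (old high-fat, young high-fat, old low-fat, young low-fat, the order kept below), 44.3, 55.0, 30.4 and 50.2 in the middle ones and 22.6, 21.8, 19.3 and 17.7 in the distal ones. All distal and 2 middle values are under the minimum of 50, so that only a bound holds, with each lower value set to 50: Cyp2c29 was at least 5.26-fold lower in the distal than in the proximal segment (adjusted p = 1.32e-06 by limma on the values as measured) and at least 5.13-fold lower in the middle. Cyp2c38 was over 50 on 2 proximal arrays only, and no fold is given for it.

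Cyp2c66, of the same cluster, had 5291, 5377, 6374 and 6962 units in the proximal arrays, 3266, 3233, 3712 and 3626 in the middle ones and 966, 954, 843 and 488 in the distal ones. It fell by 2.93 on the log2 scale (SE 0.19), of which 26.9% lay in the first step. Cyp2b10, the typical target of constitutive androstane receptor, kept most of its level to the middle segment, with 2995, 3117, 2344 and 2972 units there and 3472, 3734, 3514 and 3522 in the proximal one. It then fell to 701, 828, 612 and 440 units in the distal arrays, and its total difference was -2.50 ± 0.13 (adjusted p = 2.01e-07). Cyp2d26, the brightest Cyp2 member, fell less, by 1.28 on the log2 scale (SE 0.10), and 17.5% of that lay in the first step. The remaining Cyp2 members that fell ranged from -0.29 (Cyp2s1) to -2.13 (Cyp2c23).

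A pair of Cyp2 members ran the other way. Cyp2e1, which oxidises ethanol and other small molecules, had 36.4, 47.8, 33.8 and 41.8 units in the proximal arrays, 56.3, 54.9, 86.6 and 65.8 in the middle ones and 58.8, 86.2, 107 and 147 in the distal ones. The distal and proximal arrays did not overlap, and it rose (adjusted p = 0.000406) by at least 1.89-fold, since all its proximal values are under 50. Cyp2c55 was dimmest in the middle (527 to 760 units) and rose by 0.61 ± 0.10 between distal (952 to 1354) and proximal (587 to 1008), where the ranges overlap. Both were named after their values were seen, as was Ces1c below.

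All 4 Cyp3 members fell. Cyp3a11, the main drug-oxidising P450 of this family in mice and a target of pregnane X receptor, had 2896, 2562, 3777 and 4016 units in the proximal arrays, 1710, 1762, 2465 and 2460 in the middle ones and 955, 861, 1095 and 606 in the distal ones. Its difference was -1.92 ± 0.17, and the 3 segments did not overlap. Cyp3a44 differed by -1.71 ± 0.11, Cyp3a13, the brightest member, by -1.15 ± 0.06, and Cyp3a25 by -0.86 ± 0.06.

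Of the glucuronosyltransferases, 5 of 6 Ugt2 members fell, with a median of -1.70. Ugt2b38 had 94.8, 103, 90.5 and 112 units in the distal arrays and 886, 461, 589 and 517 in the proximal ones, a difference of -2.57 ± 0.25, and 88.5% of it lay in the step to the middle. Ugt2b35 and Ugt2b5 fell by 1.99 (SE 0.19) and 1.82 (SE 0.37) on the log2 scale. Ugt2a3 showed the opposite course, with 2598 to 2860 units in the proximal arrays, 2557 to 3267 in the middle ones and 745 to 1030 in the distal ones. Its whole fall of -1.59 ± 0.09 came after the middle segment. Ugt2b34, the brightest, fell by 0.77 (SE 0.05), and Ugt2b36 was not called (-0.28 ± 0.17, adjusted p = 0.195).

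Among the glutathione transferases all 7 Gstm members fell, with a median of -1.83 and a range from -0.79 (Gstm5) to -3.35 (Gstm6). Gstm6 had 622, 548, 551 and 581 units in the proximal arrays, 419, 308, 266 and 236 in the middle ones and 62.5, 52.4, 64.0 and 48.3 in the distal ones, with an SE of 0.11 and an adjusted p of 1.33e-08. Gstm7 differed by -2.49 ± 0.10, Gstm4 by -2.08 ± 0.14, and Gstm3, the brightest, by -1.83 ± 0.13. Gsta4, which conjugates the lipid peroxidation product 4-hydroxynonenal, had 4004, 3996, 5005 and 5065 units in the proximal arrays but 1356, 1346, 1250 and 1251 in the middle ones and 723, 833, 747 and 711 in the distal ones. It fell by 2.58 (SE 0.10), 69.4% of it in the first step. Gsta3 was not called (-0.03 ± 0.18, adjusted p = 0.897).

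In the theta class, Gstt1 fell by 2.66 on the log2 scale (SE 0.08; 156, 166, 216 and 220 units in the distal arrays, against 1226, 996, 1301 and 1227 in the proximal ones). Its class neighbours Gstt3 and Gstt2 differed by -0.51 ± 0.05 and -0.22 ± 0.07. Gstp1 differed by -0.40 ± 0.06 and Gstp3 by -0.32 ± 0.11, and all 4 of these were called.

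The sulfotransferase Sult6b2 had the largest difference of all members. It had 2369, 2147, 2385 and 2486 units in the proximal arrays, 139, 172, 61.9 and 98.5 in the middle ones and 17.1 to 22.7 in the distal ones. All distal values are under the minimum of 50, which leaves a bound of at least 46.9-fold lower in the distal than in the proximal segment (adjusted p = 1.5e-08). The acinar genes were likewise high in the proximal arrays, and their part was not tested. Of the other Sult members, Sult1b1, which sulfates phenols and thyroid hormone, differed by -0.87 ± 0.06, Sult1d1 by -0.60 ± 0.06 and Sult2b1, a sterol sulfotransferase, by -0.20 ± 0.05. Sult1c2 was lowest in the middle segment (88.9 to 164 units in the proximal, 27.2 to 53.6 in the middle and 52.8 to 88.5 in the distal arrays), with 3 of its 4 middle values under 50. It was at least 2.38-fold lower in the middle than in the proximal and at least 1.33-fold higher in the distal than in the middle segment, both called. Sult1a1 was not called (0.05 ± 0.10, adjusted p = 0.738).

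The carboxylesterases divided within their families. In Ces2, Ces2g had 1735, 1484, 1582 and 1567 units in the proximal arrays, 704, 544, 492 and 433 in the middle ones and 127, 108, 131 and 95.1 in the distal ones, and fell by 3.80 (SE 0.10; adjusted p = 2.57e-09). Ces2a rose by 0.66 ± 0.08, with 2587, 2979, 2197 and 2161 units in the distal arrays and 1418, 2082, 1283 and 1567 in the proximal ones, which do not overlap. Ces2e, the brightest, had 5927 to 6410 units in the distal and 7345 to 7877 in the proximal arrays, a small but called difference of -0.31 ± 0.05, and Ces2b differed by -0.45 ± 0.15. In Ces1, Ces1g, Ces1e, Ces1d and Ces1f fell by 2.17 (SE 0.14), 1.96 (SE 0.11), 1.56 (SE 0.11) and 1.38 (SE 0.31). Ces1c was called higher in the distal segment, but only 1 of its 12 values, 66.0 units in the distal array of young low-fat mice, was over 50, and no fold is given.

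Among wider lists of related genes some mostly fell between distal and proximal and others were mixed. Of all genes tested, 27.5% fell and 27.3% rose in this contrast. All 7 measured P450 redox partners and heme genes fell between distal and proximal, led by Cyb5r3 (-1.54 ± 0.08), and 24 of 30 other oxidases, reductases and hydrolases fell and 0 rose (0 with an adjusted p under 0.05 by limma), led by Adh4 (-4.02 ± 0.23), the epoxide hydrolase Ephx1 (-2.99 ± 0.26), the arylacetamide deacetylase Aadac (-2.58 ± 0.12) and Adh1 (-2.46 ± 0.13). Of 9 cofactor genes 5 fell and 3 rose. The sulfate donor synthases went opposite ways, with -2.86 ± 0.07 for Papss2 and 1.18 ± 0.08 for Papss1. Of 11 other conjugating enzymes 6 fell, led by Gstk1 (-1.65 ± 0.09), and 4 rose, led by Tst (1.39 ± 0.12). Drug transporters were mixed, with 10 of 23 that rose and 9 that fell. Abcc2, which exports glucuronides and glutathione conjugates, fell by 1.11 (SE 0.07), and Abcb1a, P-glycoprotein, rose by 0.65 (SE 0.07).

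Among 19 receptors and regulators 12 fell and 4 rose (27.5% and 27.3% of all genes). Nr1i3 had 221, 172, 140 and 113 units in the distal arrays and 798, 685, 766 and 683 in the proximal ones, a difference of -2.22 ± 0.11. Nr0b2 (-1.90 ± 0.15), Pparg (-1.73 ± 0.12) and Gata4 (-1.37 ± 0.09) also fell. Nr1i2 (-0.75 ± 0.05), Ahr (-0.69 ± 0.06) and Nfe2l2 (-0.77 ± 0.05) fell by less, and the bile acid receptor Nr1h4 rose by 1.27 (SE 0.08).

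The high-fat diet moved fewer members. In the middle segment 9 of 59 members rose (15.3%, against 1.31% of all genes) and 3 fell (5.08%, against 1.23%). In the proximal segment 1 rose and 2 fell (0.235% and 0.0839% of all genes), and in the distal segment 1 rose and 1 fell (0.361% and 0.168% of all genes). Over all 59 members the median diet difference was -0.05 proximally, 0.06 for the middle and 0.00 for the distal arrays, against -0.03, 0.00 and -0.01 over all genes.

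**Figure D3:**
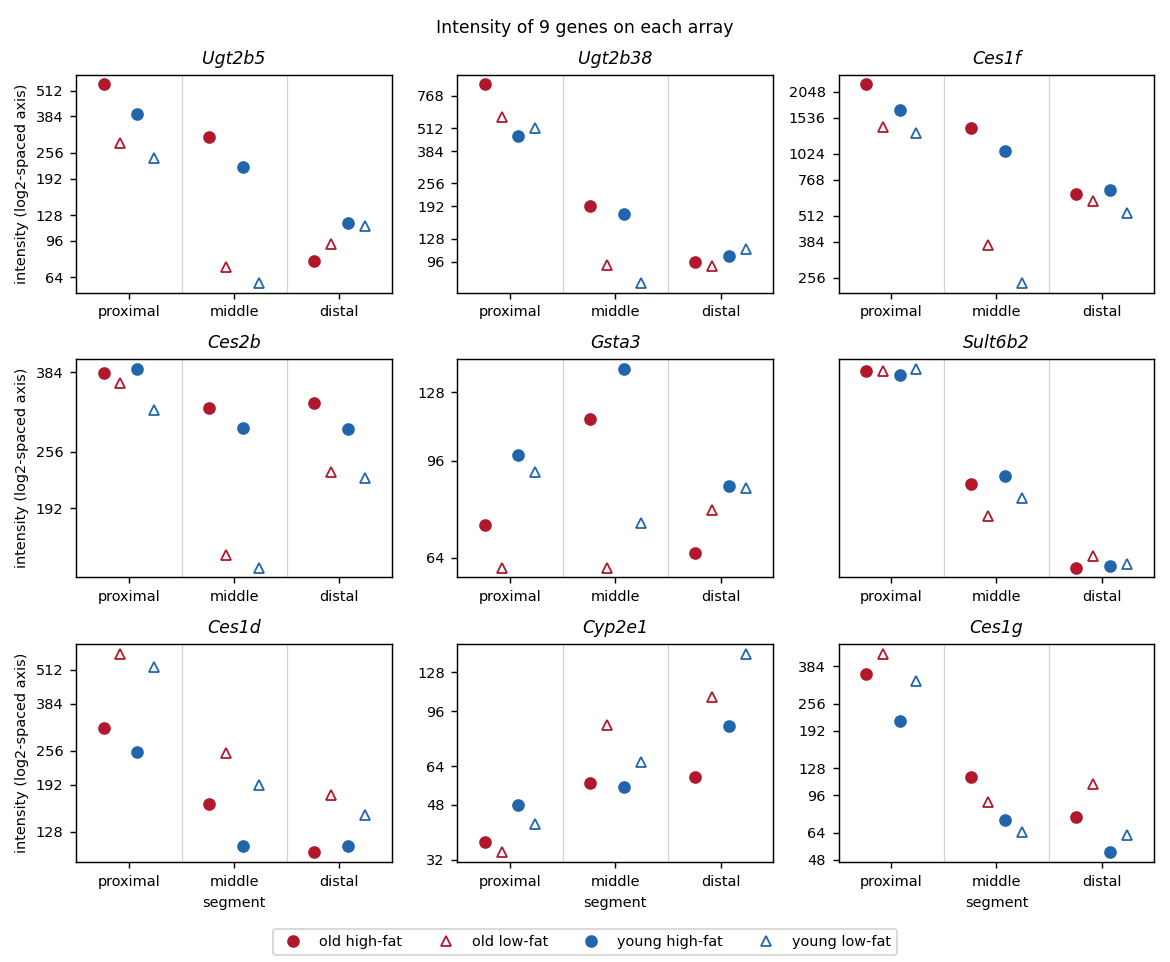
Intensity (vertical axis, log2-spaced) of 9 members on each array, by segment; red marks old and blue young mice, circles the high-fat and triangles the low-fat diet. In the middle segment the circles of Ugt2b5, Ugt2b38, Ces1f and Ces2b lie clear above the triangles, and those of Ces1d lie below.

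Ces1f, a carboxylesterase with a role in lipid metabolism in mice, showed the largest diet difference. It had 1365 and 1054 units in the middle arrays of old and young mice on the high-fat diet, against 371 and 242 on the low-fat diet. That is a rise of 2.00 ± 0.11 on the log2 scale, 4.01-fold (adjusted p = 0.0004). In the proximal segment it had 2227 and 1678 units on the high-fat diet, against 1382 and 1293, and in the distal segment 659 and 683, against 603 and 531, neither of which was called. On the low-fat diet its middle values were thus the lowest of the 3 segments, and on the high-fat diet they lay between the proximal and the distal ones. The difference of the diet differences, distal minus middle, was -1.76 ± 0.15 (adjusted p = 0.0223).

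Ugt2b5, which glucuronidates steroids and drugs, followed the same course. Its middle arrays had 304 and 218 units in old and young mice on the high-fat diet, against 71.5 and 60.1 on the low-fat diet, a rise of 1.97 ± 0.11 or 3.93-fold (adjusted p = 0.0004). Its proximal values were also higher on the high-fat diet, with 551 and 393 units, against 285 and 241, and this rise of 0.83 ± 0.11 was called (adjusted p = 0.0325). In the distal segment it had 76.4 and 118 units, against 92.6 and 114, and the diet differences of the distal and the middle segment differed by -2.09 ± 0.15 (adjusted p = 0.0219). Ces1f and Ugt2b5 were the 2 members among the genes whose diet difference was called different between these segments (0.0755% of all genes). Between distal and proximal and between middle and proximal 0 members differed (0.0503% and 0.0252% of all genes, with 18 members at an unadjusted p under 0.05 in each).

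Ugt2b38, a close relative of Ugt2b5, rose by 1.16 ± 0.16 in the middle segment (193 and 174 units on the high-fat diet, against 91.6 and 73.4; adjusted p = 0.0156). In the proximal segment Ugt2b38 was not called, with 886 and 461 units on the high-fat diet, against 589 and 517. The stretches around the start sites of the pair are printed because the genes moved together in the middle segment and the stretches resemble each other. Each runs from 250 bases before to 50 bases after the start (RefSeq, build GRCm38.p6, both on the minus strand, at chr5:87140291-87140590 and chr5:87424154-87424453), with the letters AGGTCA, the core of many nuclear receptor sites, in capitals.
Ugt2b5: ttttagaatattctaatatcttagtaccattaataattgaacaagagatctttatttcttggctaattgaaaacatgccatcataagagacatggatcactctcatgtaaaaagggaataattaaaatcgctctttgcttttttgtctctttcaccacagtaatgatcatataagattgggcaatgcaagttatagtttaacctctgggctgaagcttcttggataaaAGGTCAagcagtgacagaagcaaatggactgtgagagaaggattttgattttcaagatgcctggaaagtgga
Ugt2b38: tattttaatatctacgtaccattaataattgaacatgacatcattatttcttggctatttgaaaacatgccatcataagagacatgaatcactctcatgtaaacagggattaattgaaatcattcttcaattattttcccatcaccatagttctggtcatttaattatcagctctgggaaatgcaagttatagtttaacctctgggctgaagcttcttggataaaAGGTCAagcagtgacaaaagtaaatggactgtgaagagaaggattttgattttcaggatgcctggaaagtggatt
The longest run that both share is 62 bases and holds the AGGTCA. Of the 59 members, matched by symbol, 50 had such a stretch in the table; Ces1f and Ces1d did not.

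Letters were searched on both strands. AGGTCA stood in 11 of the 50 members' stretches (22.0%, against 16.3% of all 32851 in the table), GTTAAT, part of the Hnf1 site, in 6 (12.0%, against 7.1%), and AGATAA, the letters that GATA factors bind, in 12 (24.0%, against 11.2%). TGACNNNGC, the Nrf2 element, stood in 5 (10.0%, against 12.4%) and GCGTG, the core for the aryl hydrocarbon receptor, in 10 (20.0%, against 32.4%). A match is a description of the letters and shows no binding.

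For the segments, the stretches of Sult6b2 (chr6:142804417-142804716, minus strand) and Cyp2c29 (chr19:39286835-39287134, plus strand) are shown as examples of members that fell in the step to the middle, chosen after their values were seen, with AGATAA on either strand, and in Cyp2c29 also AGGTCA, in capitals.
Sult6b2: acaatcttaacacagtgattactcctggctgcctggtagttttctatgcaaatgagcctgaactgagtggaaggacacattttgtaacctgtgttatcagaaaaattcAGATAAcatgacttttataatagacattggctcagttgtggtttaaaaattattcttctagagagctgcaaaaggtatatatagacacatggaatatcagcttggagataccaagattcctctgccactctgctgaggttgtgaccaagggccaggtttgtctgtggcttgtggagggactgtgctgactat
Cyp2c29: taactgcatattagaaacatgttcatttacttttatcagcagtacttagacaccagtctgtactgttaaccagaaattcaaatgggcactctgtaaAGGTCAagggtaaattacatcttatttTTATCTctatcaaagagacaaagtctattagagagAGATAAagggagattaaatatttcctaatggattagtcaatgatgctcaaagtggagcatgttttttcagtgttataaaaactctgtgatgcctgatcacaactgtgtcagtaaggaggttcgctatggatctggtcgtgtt
Ugt2b38, which fell by 2.28 on the log2 scale in the same step, has no AGATAA in its stretch. Ugt2a3, which was not called in that step (0.09 ± 0.09), has 1. The factor Gata4 had 702, 715, 666 and 650 units in the proximal arrays (old high-fat, young high-fat, old low-fat, young low-fat), 537, 532, 518 and 528 in the middle ones and 340, 259, 251 and 223 in the distal ones. The part of Gata4 or of these letters in the differences was not tested.

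Other members that rose with the high-fat diet in the middle segment were Ces2b, Sult6b2, Gsta3, Ugt2b36, Ces1e and Gstm6. Ces2b had 319 and 289 units in old and young mice on the high-fat diet, against 151 and 142, a rise of 1.05 ± 0.08 (adjusted p = 0.00168). Sult6b2, brightest in the proximal segment, had 139 and 172 units in the middle, against 61.9 and 98.5 (0.98 ± 0.12). Gsta3, which conjugates aflatoxin epoxide in mice, had 115 and 141 units, against 61.3 and 74.0 (0.92 ± 0.09). The rises of Ugt2b36 (0.58 ± 0.11), Ces1e (0.52 ± 0.09) and Gstm6 (0.52 ± 0.10) were smaller. The 9 members were called from these same middle arrays, so the separation of their high-fat and low-fat values there is no separate support. It was narrowest in Ugt2b36, where the young high-fat value was 249 and the old low-fat value 235.

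**Figure D4:**
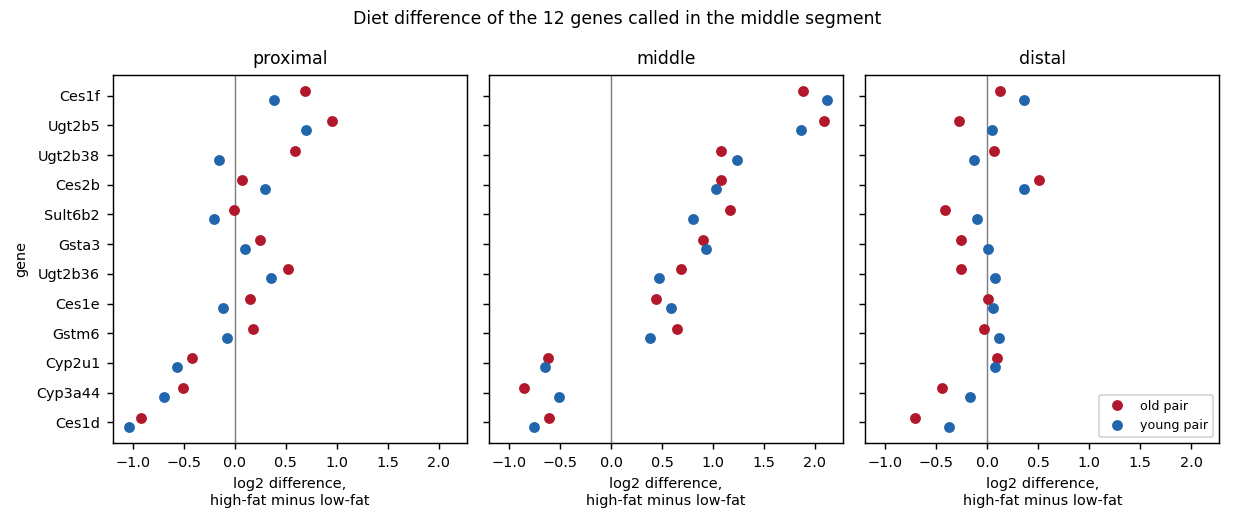
High-fat minus low-fat difference (log2, horizontal axis) of the 12 members called in the middle segment, in each segment; red points are the old and blue points the young pair of arrays. Both ages moved alike in the middle, where the members were called from these same arrays. Ces1d, Cyp3a44 and Cyp2u1 lie below 0 in the proximal segment too.

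Ces1d, a triacylglycerol hydrolase in mice, fell with the high-fat diet. It had 311 and 253 units in old and young mice on the high-fat diet in the proximal segment, against 586 and 521 on the low-fat diet (-0.98 ± 0.10, adjusted p = 0.0108). In the middle it had 164 and 113 units, against 250 and 192 (-0.69 ± 0.10, adjusted p = 0.0167), and in the distal segment 108 and 114, against 176 and 148, a lower level in each pair that was not called. Cyp3a44 and the fatty acid hydroxylase Cyp2u1 fell in the middle by 0.68 (SE 0.11) and 0.63 (SE 0.07) on the log2 scale. Cyp2c29 fell in the proximal segment, with 169.6 and 210.1 units, against 288 and 465 (-0.96 ± 0.12, adjusted p = 0.0304). Closely related esterases thus moved in opposite directions, Ces1f up and Ces1d down, in the middle segment.

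Distally, Cyp2e1 had 58.8 and 86.2 units in old and young mice on the high-fat diet, against 107 and 147 on the low-fat diet, a fall of 0.82 on the log2 scale (SE 0.10, adjusted p = 0.0196). Cyp2d26 rose there, with 3145 and 2489 units, against 1930 and 1668 (0.64 ± 0.07, adjusted p = 0.0166). The enterocyte genes Apoa4 and Fabp1, also in the list of proximal markers, rose in the same contrast by 1.31 (SE 0.07) and 1.13 (SE 0.08) on the log2 scale. They were 2 of 17 enterocyte and 2 of 9 proximal markers (0.361% of all genes rose). The smooth muscle and stromal list had a median of -0.55 there with 0 of 12 genes called by limma, and the part of either was not tested.

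Single pairs of arrays were also compared at a threshold of 2-fold, without a p-value. They are the same arrays as in the fits above, so their agreement is not separate support. In the middle segment 5 members were over 2-fold between the old pools of the 2 diets (Ces1f 3.68-fold, Ugt2b5 4.25-fold, Ces2b 2.11-fold, Sult6b2 2.24-fold, Ugt2b38 2.11-fold, against 0.554% of all genes) and 4 between the young pools (Ces1f 4.35-fold, Ugt2b5 3.63-fold, Ces2b 2.04-fold, Ugt2b38 2.37-fold, against 0.461%), all higher on the high-fat diet. In the proximal segment 3 members were over 2-fold lower on the high-fat diet in young mice (Ces1d 2.06-fold, Cyp2c29 2.21-fold, Cyp2c38 2.18-fold with its high-fat value under 50, against 0.411% of all genes) and 0 in old mice (0.277%). Distally, 0 members passed in old mice (0.596%) and 0 in young mice (0.185%). The middle array of young high-fat mice stood apart in Fabp6, though not in the sum of the 16 ileal genes, which was lowest on the old high-fat middle array. The old pair also differed in Fabp6 (191 units on the high-fat diet, against 460). In the old pair alone the differences were 1.88 for Ces1f and 2.09 for Ugt2b5, and the part of the ileal genes was not tested.

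Leaving out any 1 of the 4 middle arrays leaves 1 diet pair there, whose spread is then taken from the arrays of the other segments. It left 2 or 3 of the 12 calls, always Ces1f and Ugt2b5 (adjusted p from 0.0142 to 0.0222), with Ces2b as the third where a young array was left out. Leaving out any 1 proximal or distal array left 0 diet calls in that segment.

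Over the means of the 3 segments of each pool, 11 members rose with the high-fat diet (2.54% of all genes) and 8 fell (3.17%). The pairs of arrays counted below gave these means and share the same 4 pools, so they are not separate repeats. Beside members already named, Ces2a was higher on the high-fat diet in 6 of 6 pairs of arrays (0.36 ± 0.06, adjusted p = 0.0241), as was Gstm7 (0.27 ± 0.05). Gstm4 was higher in 5 of 6 pairs (0.29 ± 0.05) and Cyp2j9 in 4 of 6 (0.23 ± 0.05). Sult1c2 (-0.46 ± 0.05), Gstt1 (-0.30 ± 0.06) and Cyp2c68 (-0.28 ± 0.05) were lower in 6 of 6 pairs, and Cyp3a11 (-0.29 ± 0.06) in 5 of 6. The fit of the pool means has 1 residual degree of freedom, so its standard errors lean on the spread of all genes. Without the middle segment 3 of these 19 calls were kept (Ces1d, Ces1f and Cyp3a44), and 6 were kept when all genes were tested without an intensity minimum.

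In the wider lists the middle segment also held most of the diet calls: 6 of 30 other oxidases, reductases and hydrolases rose and 1 fell (1.31% and 1.23% of all genes). Adh4 and Akr1c19 each rose by 1.40 (SE 0.11 and 0.12), Aldh1a7 by 1.18 (SE 0.08) and Akr1c14 fell by 1.00 (SE 0.12). The transporter Abcc3 rose by 0.89 (SE 0.10). Of the receptors, Nr0b2 (1.06 ± 0.18) and Pparg (0.72 ± 0.08) rose in the middle and Nr1i3 in the distal segment (0.63 ± 0.08). None of 7 redox partners was called by limma in any segment. Of 17 enterocyte markers 0 rose and 1 fell in the middle segment (1.31% and 1.23% of all genes). Over the pool means 3 of them rose and 1 fell (2.54% and 3.17% of all genes).

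Few members differed with age. Within segments 0 members were called in the proximal segment (0.109% of all genes; 14 members at an unadjusted p under 0.05), 0 in the middle (0.0252%; 19 members) and 1 in the distal (0.654%). That member was Ces1g, an esterase of lipid metabolism, with 75.9 and 108 units in old mice on the high-fat and low-fat diets, against 51.9 and 62.2 in young mice (0.67 ± 0.10, adjusted p = 0.0496). Leaving out any 1 distal array, testing without an intensity minimum, keeping the acinar genes or fitting the distal arrays alone removed this call. No member was over 2-fold between old and young mice in any of the 6 pairs, whose shares over all genes were 0.201% and 0.218% in the proximal segment, 0.193% and 0.109% for the middle, 0.554% and 0.235% for the distal one (high-fat, then low-fat). The age differences of no member differed between segments (0 of all genes for distal against middle and for distal against proximal, 0.0252% for middle against proximal; 11, 9 and 3 members at an unadjusted p under 0.05).

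Over the pool means 5 members rose with age (0.772% of all genes) and 1 fell (2.16%). The pairs counted here again share the same 4 pools and are not separate repeats. Ces1g was higher in old mice in 6 of 6 pairs, with 353 and 440 units proximally (high-fat, then low-fat), against 214 and 326 in young mice, and 116 and 89.0 units in the middle, against 73.3 and 64.7. Its difference over the means was 0.60 ± 0.05 (adjusted p = 0.00468). Ces1e (0.27 ± 0.05, 6 of 6 pairs), Ces1f (0.27 ± 0.05, 5 of 6), Ces1d (0.26 ± 0.05, 5 of 6) and Sult1c2 (0.33 ± 0.05, 5 of 6) rose by less, so that 4 of the 5 were Ces1 genes. Of these 6 calls, 1 (Ces1g) was kept without an intensity minimum, 3 after quantile normalization, 1 without the proximal, 2 without the middle and 3 without the distal segment. Gsta3 was lower in old mice in 6 of 6 pairs (-0.35 ± 0.05, adjusted p = 0.0172). Smooth muscle and stromal genes were lower in old mice over the same means, with 12 of 12 called and a median of -0.67; enterocyte markers had 0 of 17 called by limma, and the part of either was not tested.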

How the data were processed

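Values were deposited by the authors as log2 intensities of Affymetrix Mouse Gene 1.0 ST arrays, which RMA produced from the scans by correcting background, equalising the arrays' distributions and summarising probes, with colon arrays handled separately; the version of RMA is not given in the sources used here. The deposited rows are transcript clusters, whereas the study analysed Entrez-based sets. They ran from 1.8 to 14.49, with array medians from 5.57 to 5.7. Of 35556 probe sets, 21789 carry 1 gene symbol, 1621 several and 12146 none in the platform annotation; only the first were used, and all 104 matched symbols are current RefSeq symbols. A gene with several probe sets was represented by its brightest one on average. Genes that exceeded 50 on 1 or more arrays stayed in, as in the study. The study also removed pancreas-specific genes taken from BioGPS. In its place a list of 46 acinar symbols drawn up here was used, of which 28 passed the minimum and were removed. That left 11920 genes.

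limma 3.58.1 (R 4.3.3) with Benjamini-Hochberg adjustment over all genes was used for the segments (pool as a block, 6 residual degrees of freedom), for diet and age within segments (9 coefficients, 3 residual degrees of freedom, 4.37 prior degrees of freedom, prior SD 0.0876) and for the pool means (1 residual degree of freedom). The correlation within pools was -0.08, and the fits were tested on simulated data. Pairs of single arrays were compared at 2-fold. Figures used matplotlib 3.10.9 in Python 3.11.15. The number of arrays limits the precision. The labels give a run-in on chow and low-fat diet whose lengths differ from those in the study's methods, so they are not printed.

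Named are, in each family, the 4 members with the largest distal minus proximal difference and the brightest. Every member over 2-fold in a diet or age pair is named too, as is every member called for diet, age or their differences between segments. Of the wider lists, some genes with large called differences and some well-known genes with smaller ones are named, and others with larger differences are left out. Members, lists and rules were chosen with earlier results of these data known. Protein sequences were not used here.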

Additional observations from a re-analysis of the deposited data

Results flagged for a closer look

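The diet difference of Ces1f differed between segments by a test of the difference itself: distal minus middle, it was -1.76 on the log2 scale (SE 0.15, limma adjusted p = 0.0223), from 0.25 in the distal and 2.00 in the middle segment. Ugt2b5 did so by -2.09 (SE 0.15, adjusted p = 0.0219), from -0.11 and 1.97. In both, the old and the young pair of pools had the same direction in the middle segment, on the same arrays that gave the call. The 3 segments share the same mice.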

How the results depend on the processing

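The 52 calls between distal and proximal stayed within 1.5 times that number under every alternative run. Between middle and proximal, 37 members were called, and 24 to 38 when 1 pool was left out. With an intensity trend and robust variance, diet calls numbered 9 instead of 3 in the proximal segment, 23 instead of 12 in the middle one and 11 instead of 2 in the distal one, age calls 2, 1 and 6 instead of 0, 0 and 1 in the same segments, pool means 31 instead of 19 for diet and 17 instead of 6 for age, and the diet difference of distal and middle 10 instead of 2. With a minimum of 100, distal diet calls were 4 and that difference had 5. From the arrays of a segment alone, the proximal diet and distal age calls were 0, and distal age calls were also 0 without a minimum or with acinar genes kept. Without a minimum, the pool means gave 6 calls for diet and 1 for age, and after quantile normalization 3 for age. Without the middle segment they gave 4 for diet and 3 for age, and without the distal segment 3 for age. Leaving out 1 array of a segment left 0 diet calls in the proximal segment, 2 to 3 in the middle one and 0 in the distal one, and 0 distal age calls. At 1.5-fold, 28 members instead of 8 passed in a diet pair and 13 instead of 0 in an age pair. Gsta3, never called between distal and proximal, ran from -0.16 to 0.02, changing sign to 0.02 without the old high-fat or the young high-fat pool. Of 720 other values of single members under alternatives 642 kept direction and side of the threshold and 78 lost the call; with an array or pool left out, 150 of 220 did and 68 lost it. The causes were not tested. With 1 array per group, precision rests on 4 pools. Values under 50 limit 15 members, among them Sult6b2, Sult1c2, Cyp2c29, Cyp2c38, Cyp2e1 and Ces1c. Cyp2d10, with all 4 distal values under 50, was at least 1.05-fold lower in the distal than in the proximal segment. Gstm6, Cyp3a44, Cyp2j9 and Cyp2c67 each had 1 distal value under 50.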

Other observations

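Probe sets that carry several symbols were left out of the families, but some are bright. The probe set of 8 Ugt1a genes had 685, 615, 609 and 547 intensity units in the proximal arrays (old high-fat, young high-fat, old low-fat, young low-fat), 568, 524, 444 and 406 in the middle ones and 446, 335, 348 and 274 in the distal ones, so that the high-fat array was the brighter in all 6 diet pairs. A set shared by Gsta1, Gsta2 and relatives had 5972, 5164, 6032 and 6124 units in the proximal arrays, 2866, 2738, 2137 and 2055 in the middle ones and 889.5, 1037, 668 and 522 in the distal ones. A set shared by Cyp3a41a, Cyp3a41b and Cyp3a44 had 308 and 331 units in the middle arrays of old and young mice on the high-fat diet, against 499 and 499 on the low-fat diet. The sets of Sult2a and Ugt2a1 with Ugt2a2 stayed between 5.6 and 10.8 units on every array. None of these was tested.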
